A study of Mus musculus with 2 samples.

Results

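The secretory cells of day 5 mouse intestinal organoids were 50 of the 1065 cells of the day 5 library (4.69%), in a series of 1863 cells. They were chosen by measured values. Each day 5 cell was scored by the mean of the authors' log2 values of 10 genes, and the 50 cells with the highest scores were taken. The genes were Atoh1, Spink4, Tff3, Agr2, Fcgbp, Lyz1, Muc2, Zg16, Mmp7 and Chgb. The scores ran over 1.43, 3.54 and 6.35 (lowest, median, highest), against a median of 0.370 in the other 1015 cells. The last cell inside stood at 1.43 and the first outside at 1.42. The working name of the set was Paneth, goblet and endocrine cells. The third of these names rested on 3 cells.

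Organoids are epithelial cultures grown in a gel from intestinal cells. All cells came from wild type C57BL/6 mice aged 10 weeks. The day 5 library is the subject here, and the day 3 library of the same strain, genotype and age is used for 1 comparison. Both cultures were given a medium with 500 ng/ml R-Spondin, 100 ng/ml Noggin and 100 ng/ml EGF. Until day 3 it was supplemented with 20% Wnt3a-conditioned medium and 10 µM Y-27632, a ROCK inhibitor, and until day 1 also with 3 µM CHIR99021, a GSK3 inhibitor. The day 5 culture spent its last days without these 3 additions. Each day is 1 library, and the sources used here do not say how many mice or cultures went into it.

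Secretory cells of the intestinal epithelium arise from crypt progenitors that express the transcription factor Atoh1, while Notch signalling from neighbouring cells directs others to the absorptive fate. Paneth cells sit at the crypt base and release alpha-defensins, lysozyme and other antimicrobial proteins, next to the stem cells that they supply with signals. Goblet cells make the mucus layer, and enteroendocrine cells release peptide hormones after a passage through a Neurog3-expressing progenitor.

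The start of transcription of 3 genes that mark these lineages is shown for orientation, each as the 250 bases before the start on the gene's own strand, from RefSeq on build GRCm38.p6. Of the 10 scored genes, 7 had an entry in that table. Capitals mark matches to CAGCTG or CAGATG, hexamers of the CANNTG form that basic helix-loop-helix factors such as Atoh1 and Neurod1 can bind, searched on both strands. Among 32851 windows of this length, 13% held CAGCTG, 14.4% held CAGATG and 25.5% held either. The Muc2 window held 1 CAGCTG, 112 bases before the start. The Cck window held 1 CAGATG, 30 bases before the start. In the Lyz1 window these letters were not found. The windows of Reg4, Atoh1 and Chgb were also searched, held neither hexamer and are not shown. A match is a description and not evidence of binding. The windows lie at chr10:117292869-117293118 (Lyz1, minus strand), chr7:141690090-141690339 (Muc2, plus strand) and chr9:121495695-121495944 (Cck, minus strand).
Lyz1: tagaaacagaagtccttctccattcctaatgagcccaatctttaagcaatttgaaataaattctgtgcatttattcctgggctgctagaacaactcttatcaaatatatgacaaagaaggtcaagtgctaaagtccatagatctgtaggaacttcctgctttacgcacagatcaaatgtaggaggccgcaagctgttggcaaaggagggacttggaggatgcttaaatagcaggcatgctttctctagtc
Muc2: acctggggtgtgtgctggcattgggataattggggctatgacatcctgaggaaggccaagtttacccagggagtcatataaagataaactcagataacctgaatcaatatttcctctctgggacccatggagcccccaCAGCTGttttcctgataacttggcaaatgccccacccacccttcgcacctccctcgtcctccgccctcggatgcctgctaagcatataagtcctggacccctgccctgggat
Cck: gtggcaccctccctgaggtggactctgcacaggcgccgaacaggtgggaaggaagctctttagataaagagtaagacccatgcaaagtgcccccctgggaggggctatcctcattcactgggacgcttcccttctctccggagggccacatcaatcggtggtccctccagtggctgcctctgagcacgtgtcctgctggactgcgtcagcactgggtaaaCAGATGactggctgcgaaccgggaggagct

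The 50 cells held 971244 unique molecular identifiers (UMIs, one for each captured transcript). The median was 15922 UMIs and 3109.5 detected genes per cell, against 13503 UMIs and 2748 genes in the other day 5 cells. Mitochondrial UMIs had a median of 4.51% in the 50 cells and 6.56% in the others. More than 27098 UMIs, 2 times the day 5 median, were found in 11 of the 50 cells (22%) and in 10.5% of the others. A doublet caller marked 8 day 5 cells (0.751%), none of the 50, and cells of high depth were kept. The libraries shared 0 cell names, but the names are codes and not barcodes. Tuft, immune and stromal markers were near 0, with at most 0.0138% of any of the 50 cells' UMIs. Of the immune list only 5 of 8 genes were among those counted, and of the stromal list 2 of 8. Enterocyte markers reached 4.48% of a cell's UMIs and are described below.

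Levels below are UMIs summed over a set of cells and given per 1000000 UMIs of that set (CPM), with exact Poisson 95% intervals that cover counting error only. Ratios are log2 of the 50 cells over the other day 5 cells, with 0.5 UMI added to each sum. With 1 library there are no replicates and no test. A gene was counted as higher or lower when it differed by at least 2-fold and had at least 10 UMIs over both sets. By this count, 1114 of 11536 genes (9.66%) were higher and 893 (7.74%) lower, with a median ratio over all genes of 0.01. Since the cells were chosen in the same library, nothing is read from these shares, and the gene ratios below are descriptions of the chosen cells.

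The 10 scored genes differed widely in how many of the 50 cells carried them. Tff3, a trefoil peptide of mucus, had 5, 192 and 1305 UMIs per cell (lowest, median, highest) and summed to 15466 CPM (15219 to 15715), against 156 CPM in the other cells. Spink4, a small protease inhibitor of secretory granules, had 1, 169 and 938 UMIs per cell and summed to 11446 CPM, against 73.1 CPM. Both had at least 1 UMI in each of the 50 cells, as did 66.4% of the other cells for Tff3 and 60.6% for Spink4. Fcgbp, a structural protein of mucus, was detected in 49 cells (2769 CPM against 12.6 CPM) and Agr2, a disulfide isomerase needed for mucin folding, in 48 cells (2079 CPM against 47.2 CPM). Muc2, the gel-forming mucin of the gut, was detected in 44 cells with 0, 14 and 114 UMIs per cell and summed to 1105 CPM (1039.7 to 1173), against 2.63 CPM. The Muc2 gene lies at chr7:141690340-141754693 (plus strand, GRCm38).

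The remaining scored genes were split between cells. Zg16 (chr7:127050156-127087328, minus strand), a lectin-like protein of goblet granules, was detected in 27 cells with 0, 1 and 879 UMIs per cell, and summed to 4301 CPM against 12.7 CPM in the other cells. Lyz1 (chr10:117287797-117292868, minus strand), which encodes lysozyme, was detected in 30 cells, with 28.0% of its UMIs in 1 of them (694 CPM against 2.87 CPM). Mmp7, the protease that activates mouse alpha-defensins, was detected in 25 cells (299 CPM against 0.916 CPM). Atoh1 (chr6:64729125-64731245, plus strand) was detected in 23 cells with at most 5 UMIs (49.4 CPM against 0.366 CPM). Chgb, a granin of hormone granules, was confined to 3 of the 50 cells (186 CPM against 3.97 CPM), and without them its ratio was -2.92.

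Abundant secretory transcripts also had UMIs in cells outside the set. Defa24 had a UMI in 70.0% of the other day 5 cells. In the Enterocyte-like cluster of 165 cells, with a median of 12107 UMIs, the shares were 64.2% for Tff3 and 59.4% for Defa24. The summed UMIs of the other cells were 0.06 of those of the 50 cells for Defa24, Defa17 and Defa30, 0.05 for Zg16 and 0.04 for Muc2, but 0.17 for Tff3 and 0.38 for Agr2. Agr2 had a UMI in 29.3% of the other cells and in 10.9% of the Enterocyte-like cells. A count of Tff3, Spink4 or Defa24 as low as in the other cells is not read as expression, and where the UMIs outside the set came from was not tested.

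**Figure D1:**
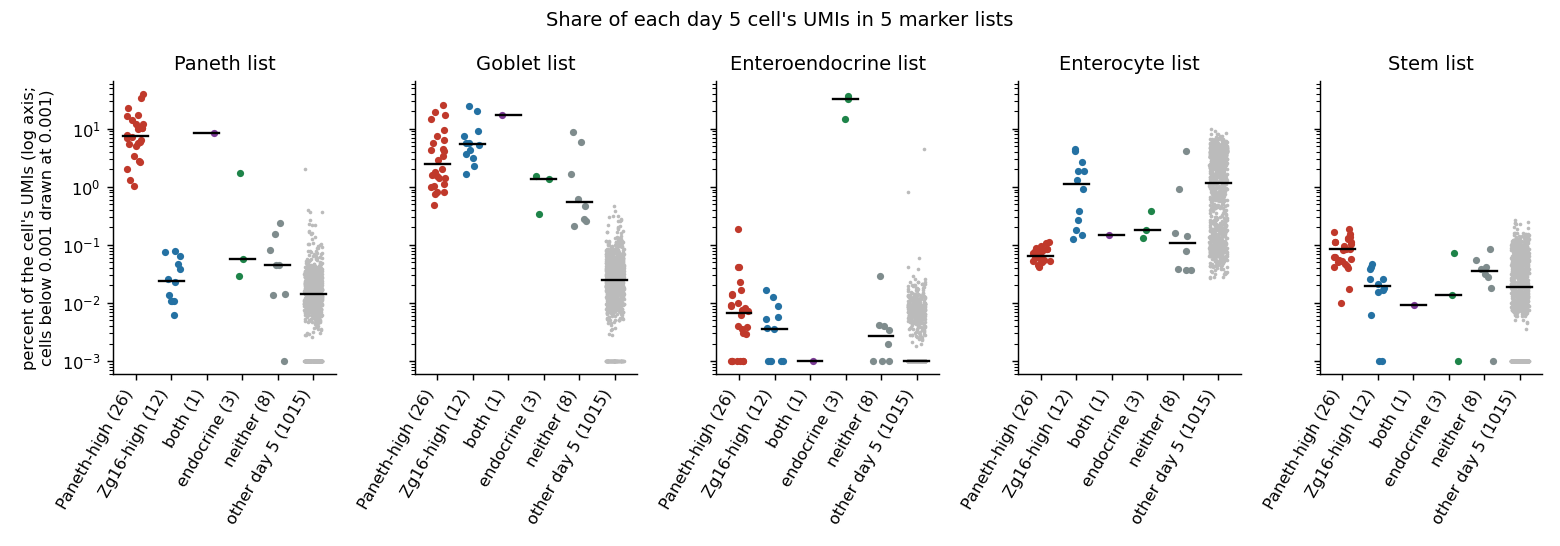
Percent of each day 5 cell's UMIs (log axis, cells below 0.001 drawn at 0.001) in the Paneth, Goblet, Enteroendocrine, Enterocyte and Stem marker lists, 1 dot per cell and a bar at each median. The 26 Paneth-high cells had at least 1.02% of their UMIs in the Paneth list, the 12 Zg16-high cells at most 0.0780%, and the 3 endocrine cells had 14.9% to 36.7% in the Enteroendocrine list.

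The cells sorted into classes by their products. At least 1% of UMIs in the Paneth marker list marked 26 Paneth-high cells (52%), at least 0.25% in Zg16 marked 12 Zg16-high cells (24%), and 1 cell passed both limits. At least 5% in the Enteroendocrine list marked 3 endocrine cells (6%), and 8 cells (16%) passed none. The endocrine limit went first, and 1 endocrine cell also passed the Paneth limit. These classes are ranges of a measured share and not cell types, and 3 cells lay within 2-fold of the Paneth limit and 3 within 2-fold of the Zg16 limit. The Paneth list held 1.02%, 7.50% and 39.1% of UMIs in the Paneth-high cells (lowest, median, highest) and 0.00626%, 0.0240% and 0.0780% in the Zg16-high cells. No Zg16-high cell reached the lowest Paneth-high cell, but the limits themselves used this list.

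Defa24 and Zg16 were nearly exclusive. At 40 or more UMIs, 27 of the 50 cells carried Defa24 alone, 12 Zg16 alone, 1 both and 10 neither. Muc2, a scored gene, was present in both classes at a limit of 1 UMI. All 26 Paneth-high cells had it, with 1, 12.5 and 30 UMIs per cell. So did all 12 Zg16-high cells, with 18, 47.5 and 114 UMIs per cell. At the limit of 40 UMIs used for Defa24 and Zg16, no Paneth-high cell carried Muc2. Over the 50 cells, on log2(CPM + 10), Defa24 had Pearson correlations of 0.76 with Lyz1, 0.78 with Mmp7, 0.74 with Reg4 and -0.56 with Zg16. Zg16 had 0.78 with Clca1, and Muc2 had 0.81 with Fcgbp. The cells share 1 library and were chosen on a score that includes Lyz1, Mmp7, Zg16, Muc2 and Fcgbp, which can shape such correlations. Large granule transcripts also take part of each cell's total, so the correlations are given as a description.

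**Figure D2:**
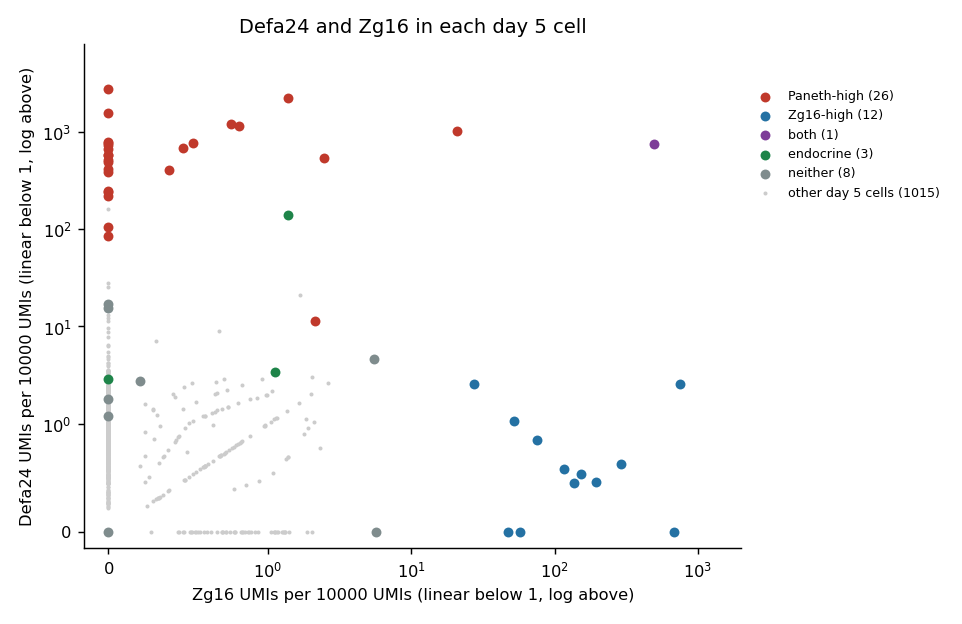
Defa24 against Zg16 in every day 5 cell, both as UMIs per 10000 UMIs of the cell (linear below 1, log above), coloured by class. Of the 50 cells, 1 had at least 40 UMIs of both, while 27 had this many of Defa24 alone and 12 of Zg16 alone.

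How the cells divided depended on which genes were counted. When each cell was given to the list with the larger share of its UMIs, 21 cells were led by the Paneth list, 26 by the Goblet list and 3 by the Enteroendocrine list, with 9 cells within 2-fold of the second list. Without Agr2, Tff3 and Spink4, which both lineages carried, the counts were 29, 18 and 3. A clustering tree of the 50 cells on variable genes was cut into 4 groups, a number that was set and not found. One held 20 Paneth-high cells, 1 Zg16-high cell and 4 of neither class. Another held 7 Zg16-high cells and 2 of neither class. A mixed group held 6 Paneth-high cells, 4 Zg16-high cells, the cell with both and 2 of neither class, and the last held the 3 endocrine cells. In a clustering of the whole day 5 library, 39 of the 50 cells formed a cluster with no other cell in it, with 25 Paneth-high and 10 Zg16-high cells.

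Alpha-defensins, the antimicrobial peptides that Paneth cells store, were the gene family with the highest median ratio among the lists measured. Of 38 listed genes, 21 were in the table and 15 reached 10 UMIs. All 15 were at least 2-fold higher in the 50 cells, with ratios of 6.13 to 9.22 and a median of 7.78. Together the family held 42069 CPM (4.21% of UMIs) in the 50 cells and 156 CPM in the others. Defa24 (chr8:21734494-21735471, plus strand, GRCm38) had 0, 304 and 2824 UMIs per cell and summed to 32350.3 CPM (31994 to 32710.0), against 120.2 CPM, a ratio of 8.07. Defa17 (chr8:21655780-21656735) was at 4984 CPM against 17.5 CPM and Defa30 (chr8:21134642-21135598) at 2896 CPM against 10.7 CPM, with 32.2% of the Defa30 UMIs in 1 cell. Defa3 was at 490.1 CPM against 0.794 CPM, in 22 cells. Defa28 had 32 UMIs in 13 of the 50 cells and 1 in the others. It thus reached 10 UMIs through the 50 cells alone, and for such genes the direction was fixed by the limit. Defa26 was at 274 CPM against 1.22 CPM, and AY761184, a defensin-like gene on the same list, at 233 CPM against 1.77 CPM. The members are hard to tell apart at the 3′ end that was read: 10 of the 15 have another member at least 95% identical over the last 200 bases, so the split between single members is uncertain.

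Other products of Paneth granules were less uniform. Of 11 genes measured beside the defensins, 7 were at least 2-fold higher and 0 lower, with a median ratio of 1.72. Itln1, a lectin that binds microbial sugars, was detected in 32 cells (2294 CPM against 22.4 CPM). Ang4, a microbicidal ribonuclease, was detected in 17 cells, with 42.0% of its UMIs in 1 of them (353 CPM against 1.04 CPM). Mptx1, a secreted pentraxin, had the highest ratio of the list, 9.67, in 18 cells (421 CPM against 0.488 CPM). Clps, the colipase that anchors lipase to fat droplets, was detected in 42 cells (484 CPM against 2.01 CPM). Reg4, a lectin of secretory cells, was detected in 34 cells (567 CPM against 2.50 CPM). At the low end stood Tcn2, which carries vitamin B12, with a ratio of -0.90, and Guca2b, the uroguanylin gene, at 430.4 CPM against 768 CPM.

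Goblet genes outside the score were also high as a group. Of 27 measured, 23 were at least 2-fold higher and 0 lower, with a median ratio of 4.44. Clca1, a metalloprotease of mucus, was detected in 21 cells (326 CPM against 0.611 CPM). The chemokines Ccl6 and Ccl9 were at 244 CPM against 1.04 CPM and 163 CPM against 1.16 CPM. Tpsg1, a tryptase, was detected in 34 cells (113 CPM against 0.366 CPM) and Rep15, an effector of Rab15, in 22 cells (108 CPM against 0.488 CPM). Capn9, a calpain, had 15 UMIs in 11 of the 50 cells and 0 in the others, at least 84.3-fold higher against a floor of 3 UMIs over the other cells. The membrane mucins did not follow: Muc13 had a ratio of 0.15 and Muc4 of -0.41. Sugar-transferring enzymes of mucin were near the other cells, with 4 of 21 higher, 2 lower and a median of 0.55. Galnt12, which starts O-glycan chains, had 3.95 and C1galt1, which extends them, 1.49, against -1.24 for the sialyltransferase gene St3gal4. With the 3 clusters of highest Enterocyte share left out of the other cells, 6 of the 21 were higher and 0 lower. St3gal4 then no longer passed 2-fold.

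**Figure D3:**
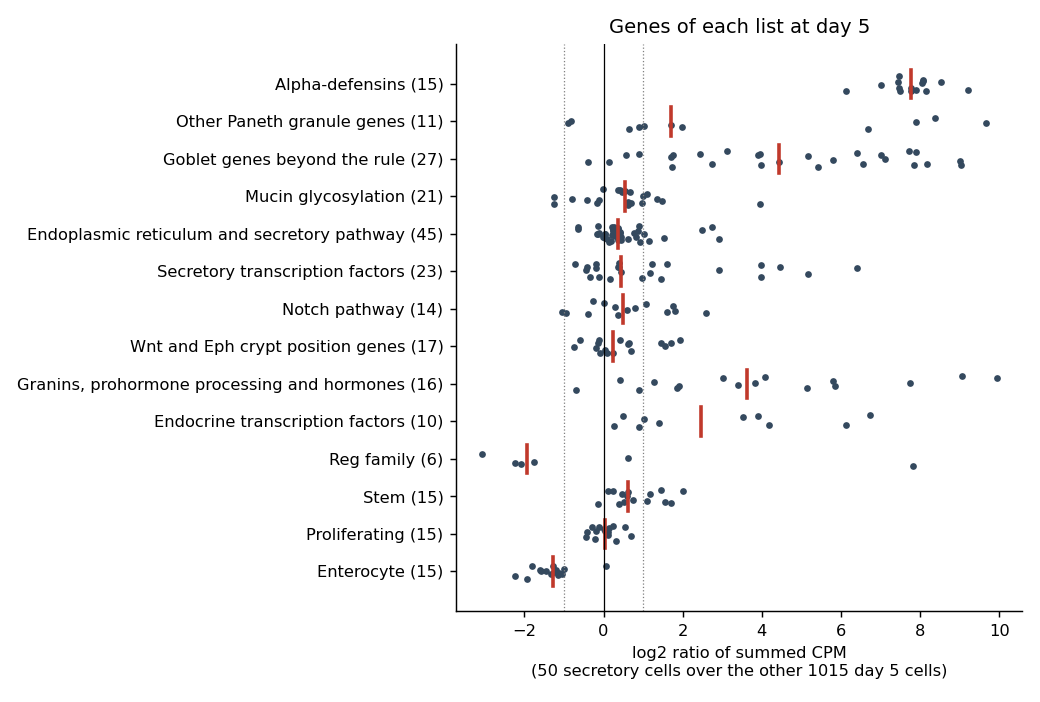
Log2 ratio of summed CPM, the 50 secretory cells over the other 1015 day 5 cells, for each gene with at least 10 UMIs (dots) of 14 gene lists (1 line each, number of genes in brackets), with the list median as a bar and dotted lines at 2-fold. Alpha-defensins lay between 6.13 and 9.22, whereas the Enterocyte list had a median of -1.27.

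Of 23 transcription factors of the secretory lineage, 10 were at least 2-fold higher and 0 lower, with a median of 0.43. Spdef, which drives goblet and Paneth maturation, was at 27.8 CPM against 0.305 CPM, in 17 cells. Creb3l4 and Creb3l1, factors anchored in the endoplasmic reticulum, had ratios of 5.15 and 3.97. Bhlha15, a factor of secretory cell architecture, had 4.46 from 8 UMIs, Klf4, a goblet cell factor, 3.97 and Foxa2 2.91. Sox9, needed for Paneth cells, was at 110.2 CPM against 40.2 CPM. Cdx2, the intestinal identity factor, had the lowest ratio of the list, -0.71. Gfi1, which acts downstream of Atoh1, had 5 UMIs in the 50 cells.

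In the endoplasmic reticulum and secretory pathway list, 6 of 45 genes were higher and 0 lower, with a median of 0.36. The disulfide isomerase genes Pdia5 and Txndc5 had 2.93 and 2.74, and Fkbp11, a prolyl isomerase, 1.52. The chaperone gene Hspa5 was at 227 CPM (198 to 259) against 167 CPM, and Xbp1, the factor of the unfolded protein response, at 129.7 CPM (108 to 154) against 101 CPM. Neither passed 2-fold.

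Genes of Notch signalling and crypt position were measured for the same cells. Dll1, a Notch ligand of secretory progenitors, was detected in 27 of the 50 cells and stood at 48.4 CPM (35.6 to 64.4), against 8.06 CPM. Dll4, the other such ligand, had 3 UMIs in the 50 cells and 19 in the others. Hes1, the target through which Notch represses Atoh1, was at 164 CPM (139 to 191) against 215 CPM. In all, 5 of 14 Notch pathway genes were higher and 1 lower. Of 17 Wnt and Eph genes, 4 were higher and 0 lower, among them Cd24a, a surface protein used to sort Paneth cells (294 CPM against 78.0 CPM), Ephb3, a receptor that positions them (1.71), and the Wnt target Axin2 (1.56). With the 3 clusters of highest Enterocyte share left out of the other cells, 2 of the 17 were higher and 0 lower. Of the niche signals that Paneth cells send, Wnt3 had 8 UMIs in 6 of the 50 cells and 3 in the others. Egf had 2 UMIs in the 50 cells. Kit, a receptor found on Paneth and goblet cells, was detected in 23 cells (31.9 CPM against 0.427 CPM).

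Absorptive genes were low in the 50 cells as a whole. Of 15 Enterocyte genes, 14 were at least 2-fold lower and 0 higher, with a median ratio of -1.27. Fabp1, a fatty acid carrier, had 0, 3 and 293 UMIs per cell and summed to 898 CPM, against 4233 CPM, and Apoa1, an apolipoprotein, to 827 CPM against 3140.2 CPM. The Reg lectins other than Reg4 and Reg3d were lower too, with Reg1 at 1344 CPM against 5751 CPM, Reg3g at 429 CPM against 1462 CPM, Reg3b at 182 CPM against 857 CPM and Reg3a at 15.4 CPM against 134 CPM. Other genes with low ratios were Cmbl, a hydrolase (26.8 CPM against 130.1 CPM), Creb3l3, a factor of lipid metabolism (23.7 CPM against 109 CPM), Gsta1, a glutathione transferase (215 CPM against 936 CPM), Prap1 (348 CPM against 1450 CPM) and Adh6a, an alcohol dehydrogenase (36.0 CPM against 141 CPM). These directions depended on what the other cells were. When the 3 clusters with the highest Enterocyte shares were left out of the comparison, 538 other cells remained, and the Enterocyte median was 0.48, that of the Reg family 0.29 and the Reg3b ratio 1.17. Of the 15 Enterocyte genes, 6 were then higher and 0 lower. The count of 14 lower genes was 9 without the Enterocyte-like cluster alone, 6 without doublet calls and cells of high depth, and 6 when 75 cells were taken as the set. Of 15 Stem genes, 6 were higher and 0 lower, with a median of 0.63, but 2 were higher, with a median of 0.28, when the same 3 clusters were left out. Of 15 proliferation genes, 0 were past 2-fold in either direction.

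Most UMIs of absorptive genes in the 50 cells came from the Zg16-high cells, with 2865 UMIs of the Enterocyte list, against 350 in Paneth-high cells and 631 in the cells of neither class. The Enterocyte list held 0.0414%, 0.0638% and 0.112% of UMIs in the Paneth-high cells (lowest, median, highest), against 0.124%, 1.12% and 4.48% in the Zg16-high cells, so these classes did not overlap. The median of the other day 5 cells was 1.15%. Summed, the list was at 660.0 CPM (593 to 733) in Paneth-high cells and 13524 CPM (13033 to 14028) in Zg16-high cells. All 15 of its genes were at least 2-fold lower in Paneth-high than in Zg16-high cells, with a median ratio of -4.49. Over all 6808 genes compared between these classes, 13.8% were higher and 20.7% lower in Paneth-high cells, with a median of -0.17. Apoa1 was at 86.7 CPM in Paneth-high and 3073 CPM in Zg16-high cells, Reg1 at 147 and 4753 CPM, Gsta1 at 18.9 and 835 CPM, Cyp2c29, a cytochrome P450, at 1.89 and 297 CPM, and Krt20, a keratin of mature epithelium, at 0 and 137 CPM. These values come from 26 and 12 cells of 1 library. Mitochondrial UMIs had a median of 4.17% in Paneth-high and 7.18% in Zg16-high cells, with 32.8% in 1 Zg16-high cell, and their part in the result was not tested. Of the Zg16-high cells, 10 of 12 lay in the cluster that held 25 of the 26 Paneth-high cells, and 2 in a cluster with an Enterocyte median of 4.31%. Whether some of the Zg16-high cells were doublets with an absorptive cell was not tested beyond the caller, which marked none of them.

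Genes of stem and crypt-base cells lay on the other side. Of 11 Stem genes measured between the classes, 8 were at least 2-fold higher and 0 lower in Paneth-high cells, with a median of 2.01, and the list summed to 915 CPM (835 to 999.8) in Paneth-high, 227 CPM (167 to 300.4) in Zg16-high and 416 CPM in the other day 5 cells. Lgr5, the receptor that marks crypt-base stem cells, had 42 UMIs in 17 Paneth-high cells (79.2 CPM) and 0 in Zg16-high cells, at least 5.59-fold higher, beside 16.9 CPM in the other cells. Axin2 was at 60.3 CPM in Paneth-high cells and 0 in Zg16-high cells, at least 4.26-fold higher. Both bounds use a floor of 3 UMIs over the Zg16-high cells. Genes compared between the classes had at least 10 UMIs over all the chosen cells together. Paneth-high cells held 530267 UMIs in all and Zg16-high cells 211853. Lgr5 and Axin2 met the limit with no UMI from Zg16-high cells, and for such genes the direction was fixed by the limit. The count of 8 higher genes therefore depends in part on it, while the summed levels of the list use no such limit. Smoc2, another stem cell gene, was at 158 CPM in Paneth-high and 28.3 CPM in Zg16-high cells. Sox9 was at 145 and 33.0 CPM, Sox4 at 155 and 18.9 CPM, Ephb2 at 43.4 and 4.72 CPM and Cd24a at 388 and 132 CPM in Paneth-high and Zg16-high cells. Of 15 proliferation genes, 11 were higher and 0 lower (1050 CPM in Paneth-high and 373 CPM in Zg16-high cells). Without cells above 27098 UMIs, 20 Paneth-high cells had 815 CPM of the Stem list and 59.2 CPM of Lgr5, and 10 Zg16-high cells had 224 CPM and 0.

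Other secretory products also parted the classes. Reg4 was detected in 26 of 26 Paneth-high and 4 of 12 Zg16-high cells (907 and 231 CPM). Mmp7 was at 541 CPM and Ang4 at 634 CPM in Paneth-high cells, both at 0 in Zg16-high cells, which gives at least 38.2-fold and 44.7-fold by the same floor. Both genes belong to the Paneth list that set the class limit, and Mmp7 is also a scored gene. Their split therefore follows in part from how the classes were cut. Clca3b, of the calcium-activated chloride channel regulator family, was at 319 and 4.72 CPM, and Rnase1, a secreted ribonuclease, at 256 and 14.2 CPM. Mptx1, although on the list of Paneth granule genes, went the other way, at 287 CPM in 10 Paneth-high and 1213 CPM in 8 Zg16-high cells. Muc2 (645 and 2865 CPM), Fcgbp (1288 and 8119 CPM), Clca1 (99.9 and 1147 CPM), Rep15 (22.6 and 307 CPM) and Txndc5 (151 and 463 CPM) were lower in Paneth-high cells. Of these, Muc2 and Fcgbp are scored genes, which chose the cells, so their split is not read as a result. Atoh1 was at 52.8 CPM (35.1 to 76.3) in Paneth-high and 51.9 CPM (25.9 to 92.9) in Zg16-high cells. It is a scored gene, which chose the cells of both classes, so this closeness is not read as a result. Kit was at 33.9 and 23.6 CPM.

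**Figure D4:**
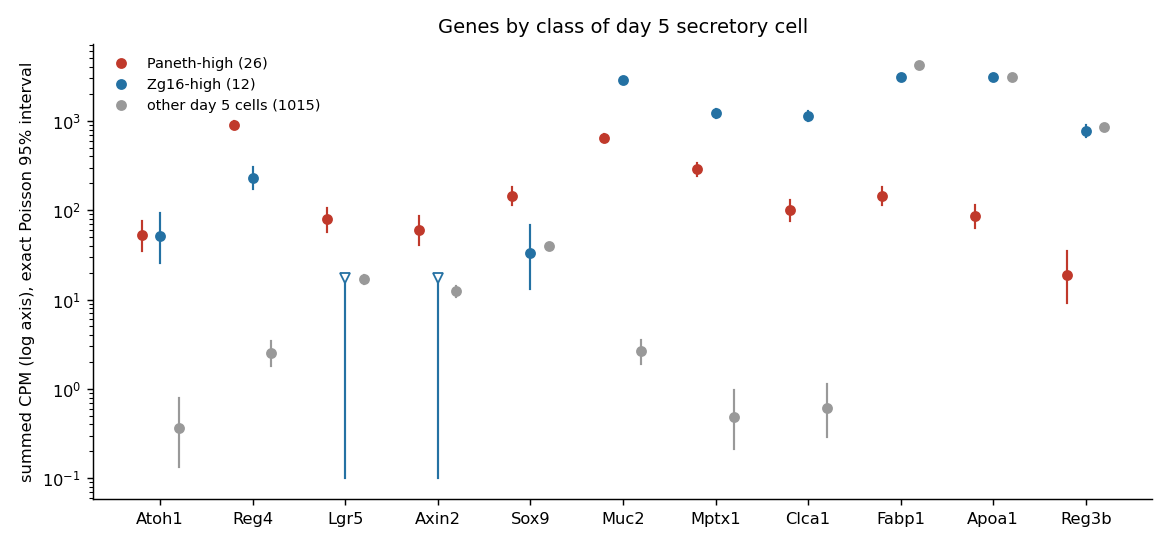
Summed CPM (log axis) of 11 genes in the Paneth-high cells, the Zg16-high cells and the other day 5 cells, with exact Poisson 95% intervals, and open triangles at the upper bound where no UMI was seen. Atoh1, a scored gene, was at 52.8 and 51.9 CPM in the 2 classes. Lgr5 and Axin2 had no UMI in Zg16-high cells, and Apoa1 was at 86.7 and 3073 CPM.

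The 3 endocrine cells were few but strongly marked. The Enteroendocrine list took 14.9%, 36.7% and 32.6% of their UMIs, and at most 0.190% in any of the other 47 cells. Cck, the gene of the satiety hormone cholecystokinin, had 911, 1768 and 2029 UMIs in these cells, which held nearly all of its 4867 day 5 UMIs. Gcg, the proglucagon gene, had 0, 1244 and 0 UMIs, and the second cell alone held 98.3% of the day 5 total. Ghrl, the ghrelin gene, had 3, 12 and 158 UMIs, Sct, the secretin gene, 7, 82 and 27, and Chgb 91, 74 and 16. The first cell carried Gip, the gene of the incretin GIP, with 8 UMIs. All 3 expressed Neurod1, a factor of endocrine differentiation, with 2, 3 and 4 UMIs, and Isl1, with 10, 2 and 1. Neurog3 had 0 UMIs in the whole day 5 library. Each cell thus had its own mixture of hormones around Cck, and 3 cells give no estimate of how common each is. The cells were shallow, with 7262, 8818 and 6968 UMIs. The first also had 102 Defa24 UMIs and 1.74% of its UMIs in the Paneth list.

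As a group, 13 of 16 genes of granins, prohormone processing and hormones were at least 2-fold higher in the 50 cells, with a median of 3.62, and 7 of 10 endocrine factors, with a median of 2.47. The granin and hormone median was 0.73 without the 3 endocrine cells, and the Gcg ratio of 9.93 was -1.32 without them. Of the endocrine factors, 2 of 6 were higher without these cells, with a median of 0.72. Neurod1 had 9 of its 10 day 5 UMIs in them, and for such genes the direction was fixed by the limit of 10 UMIs. The counts of 13 and 7 higher genes therefore describe 3 cells.

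The 8 cells of neither class were not alike. Of these, 3 had 5.92%, 8.84% and 1.68% of UMIs in the Goblet list with at most 1 Zg16 UMI, and 160, 125 and 201 UMIs of Agr2. They lay in the cluster of the Paneth-high and Zg16-high cells. The other 5 had 0.215% to 0.629% of UMIs in the Goblet list, close to the highest of the other day 5 cells, 0.473%, and were the 5 lowest scores of the set. Of the 8 cells, 3 had more than 27098 UMIs. The 1 cell past both limits had the highest score of all, with 809 Defa24, 532 Zg16 and 87 Muc2 UMIs among 10834. Its Paneth share was 8.42% and its Goblet share 17.4%.

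The same 10 genes were used to take the 50 highest-scoring cells of day 3. Scores of that set began at 2.06, with a median of 3.29, and its cells were deeper, with a median of 33185.5 UMIs. By the same limits, day 5 had 26 Paneth-high, 12 Zg16-high, 1 both, 3 endocrine and 8 of neither class, while day 3 had 11, 1, 0, 0 and 38. Day of culture, medium and library cannot be told apart. Ratios here are log2 of the day 5 set over the day 3 set, and over 9535 genes 7.51% were higher and 12.1% lower, with a median of -0.24.

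Alpha-defensins were higher in the day 5 set, while genes of mucus differed in direction. All 15 alpha-defensins with at least 10 UMIs were at least 2-fold higher, with a median of 4.27, or 4.86 over 13 genes with each cell thinned to 6777 UMIs. This limit is met over both sets together. Genes such as Gm7861, with 147 UMIs at day 5 and 0 at day 3, met it through day 5 alone. For such genes the direction was fixed by the limit. Defa24 was at 32350.3 CPM at day 5 and 5870.1 CPM at day 3, Muc2 in the day 5 set at 1105 CPM (1039.7 to 1173) and in the day 3 set at 104 CPM (89.5 to 119.8), and Zg16 at 4301 and 307 CPM, with 41.4% of the day 3 Zg16 UMIs in 1 cell. Both are scored genes, which chose the cells of each day. Tff3, also scored, was at 15466 and 12095 CPM and did not pass 2-fold. After thinning, Muc2 was detected in 40 of 50 day 5 cells and 18 of 50 day 3 cells. Goblet genes outside the score differed less, with 6 of 27 higher, 0 lower and a median of 0.22, and Clca1 was at 326 and 408 CPM. The 14 Enterocyte genes past 2-fold, of 15, were higher at day 5 (median 4.43), as were 4 of 5 Reg genes, with Reg1 at 1344 CPM at day 5 and 0.552 CPM at day 3. These differences were not particular to the chosen cells. The Enterocyte list had a median share of 1.15% in the other day 5 cells and 0.0383% over all day 3 cells. Outside the sets, Reg1 was at 0.890 CPM at day 3, beside the higher day 5 level given above.

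Some regulators and products of the lineage were close between the days. Atoh1 stood at 49.4 CPM in the day 5 set (36.4 to 65.5) and at 50.3 CPM in the day 3 set (40.5 to 61.7), Dll1 at 48.4 and 43.6 CPM, Mmp7 at 299 and 281 CPM and Reg4 at 567 and 447 CPM. Atoh1 and Mmp7 are scored genes, which chose the cells of each day, so their closeness is not read as a result. Dll4 had 3 UMIs at day 5 and 23 at day 3. Neurog3, the factor that commits cells to the endocrine fate, had 0 UMIs at day 5 and 113 in 10 cells at day 3 (62.4 CPM), at least 20.2-fold lower at day 5 against a floor of 3 UMIs. Cck was at 4859 and 244 CPM, with 95.2% of the day 3 UMIs in 1 cell. In the secretory pathway list 0 of 44 genes were higher and 12 lower at day 5 (median -0.72), with Calr, a calcium-binding chaperone, at 302 and 791 CPM and Hspa5 at 227 and 468 CPM. In the other day 3 cells Calr was at 503 CPM and Hspa5 at 300 CPM. For Hspa5 this was also above its level in the other day 5 cells, so its difference was not particular to the chosen cells. Agr2, also scored, was at 2079 and 4238 CPM, and Mki67, a proliferation marker, at 53.5 and 118 CPM. Mki67 was at 138 CPM in the other day 3 cells.

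**Figure D5:**
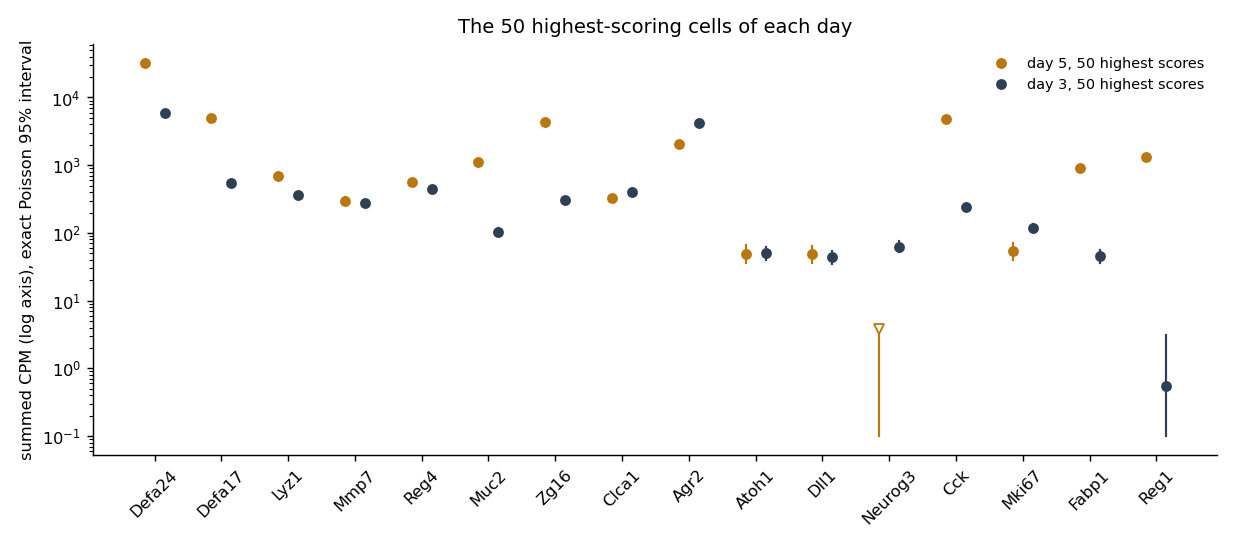
Summed CPM (log axis) of 16 genes in the 50 highest-scoring cells of day 5 and of day 3, with exact Poisson 95% intervals, and an open triangle at the upper bound where no UMI was seen. Defa24 was at 32350.3 and 5870.1 CPM, Muc2 at 1105 and 104 CPM, Atoh1 at 49.4 and 50.3 CPM, and Neurog3 had 0 UMIs at day 5 and 113 at day 3.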

How the data were processed

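Single-cell RNA libraries of mouse intestinal organoids (10x Genomics 3′ chemistry per the labels' protocols), 1 at day 3 and 1 at day 5, were analysed from deposited tables. The UMI counts deposited by the authors cover 15745 gene IDs and 1863 cells. The submitters' processing notes name Cell Ranger 1.3.0 and mm10. No source used here states a filter on genes or cells. A deposited log2 table holds the same cells, and its values are log2 of the count over the cell's size factor, plus 1. These log2 values served for the score only, and all levels come from the counts. Symbols were matched for 15681 IDs (GENCODE on GRCm38).

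Sums, shares and intervals were computed in numpy 2.4.6, pandas 2.3.3 and scipy 1.17.1. Day 5 cells were clustered in scanpy 1.11.5 (2000 variable genes, 30 components, 15 neighbours, Leiden resolution 1, igraph 0.11.9). Clusters were named where at least 3 of 25 leading genes were markers of a type. Scrublet (expected share 6%) called few doublets, so doublets cannot be taken as removed, and no called cell was left out of the values above. For thinned values each cell was drawn down to 6777 UMIs. Figures were drawn in matplotlib 3.10.9. The ratio script was tested on simulated data.

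Named genes were the 10 scored genes, fixed focal genes, the 20 highest and 10 lowest ratios with at least 100 CPM in the higher set, at least 10 UMIs in the lower set and, for high genes, 10 cells with a UMI, and, of each list, the 3 highest, the 2 lowest and any with at least 500 CPM. Not every gene that this rule names is printed. From the class comparison, the genes outside these lists (Clca3b, Rnase1, Sox4, Krt20, Cyp2c29) came from its highest and lowest ratios. A few further list members were named after their values were seen. The members, gene lists and class limits were chosen with earlier results of these data known. Alternatives are given below, among them TMM factors from edgeR 4.0.16.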

Additional observations from a re-analysis of the deposited data

How the results depend on the processing

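No paired analysis was possible because each day is 1 library and no result comes from a test. Counts of genes depended most on how single cells and low counts weigh. The 1114 higher genes were 3147 with no minimum of UMIs, 459 with a minimum of 50, 568 without each gene's top cell and 3422 with 5 UMIs added to each sum. The 893 lower genes were 1757 without the top cell and 164 with 5 UMIs added, since a fixed number of UMIs weighs more in the smaller set. Higher genes were 55.5% of all calls, 24.4% without the top cell and 95.4% with 5 UMIs added. As differences of the authors' mean log2 values, which have 1 added before the log, the alpha-defensin median was 0.79, the goblet median 0.72 and that of granins and hormones 0.22.

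The granin and hormone median of 3.62 was 1.90 with a minimum of 50 UMIs, 5.46 with 75 cells, 5.36 after thinning and 0.73 without the 3 endocrine cells, an alternative chosen after seeing the data. Chgb was then -2.92 and Gcg -1.32. Gcg was -0.97 with 40 cells and -1.34 without its top cell. The Enterocyte median of -1.27 was -0.89 without doublet calls and cells of high depth. With the 3 clusters highest in Enterocyte genes left out of the other cells, also chosen after seeing the data, it was 0.48, the Reg family 0.29, Reg1 0.29, Reg3b 1.17, Creb3l3 0.15, Gsta1 0.078 and Apoa1 1.79. Scoring on log2 CPM kept 48 of the 50 cells, and scoring on 6 goblet genes kept all 50. The depth and the 1 library per day limit every value to these cells, and a 0 in the 12 Zg16-high cells bounds a gene only at the floor of 3 UMIs.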

Other observations

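A few cells outside the set carried secretory products that the score gave little weight. The cell at rank 56 (score 1.16) had 684 UMIs of Ghrl, the ghrelin gene, which was 67.9% of the day 5 total, with 7 UMIs of the endocrine factor gene Isl1, 6 of Nkx2-2 and 75 of Tff3. The Enteroendocrine list held 4.41% of its UMIs. The cell at rank 51 (score 1.42), the first outside the set, had 30 UMIs of Sst, the somatostatin gene, 27 of Ghrl, 22 of Chgb and 19 of Cck, with 0.804% in that list. No other cell outside the set reached 0.5%. The Sst count of this cell was 40.5% of the day 5 total, and the next cell had 2.

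The cell at rank 93 (score 0.870) had 281 Defa24 UMIs among 17617, with 1 Lyz1 UMI and no Muc2 or Mmp7, and 2.05% of its UMIs in the Paneth list. It was the only cell outside the set above 1% in that list, while 5 were above 0.25%. In the Goblet list, 9 cells outside the set were above 0.25%, the highest at 0.473%.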
